A study of Mus musculus with 12 samples.

Results

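The annexin genes of the lactating mouse mammary gland are described here in Btn1a1 knockout (KO) and wild-type (WT) mice. The members were the rows of the deposited gene table whose symbol was Anxa followed by a number, 9 of 11834 genes: Anxa1, Anxa2, Anxa3, Anxa4, Anxa5, Anxa6, Anxa7, Anxa8 and Anxa11. Of 10 names sought, Anxa9 was not analysed here. The members were chosen by symbol and by having a row, so the rule itself used a level high enough to pass whatever filter the authors applied. The family was taken up with earlier results of these data known. PolyA RNA of the mammary gland was sequenced from 12 C57BL/6 mice in lactation 1, with 1 library per mouse. The 7 KO mice carried the genotype Btn1a1-/-, and 5 of them were taken on day 10, KO replicate 3 on day 8 and KO replicate 4 on day 11. Of the 5 WT mice, 3 were taken on day 10, WT replicate 2 on day 9 and WT replicate 3 on day 11. Per the labels, the mutant mice came from matings of heterozygous pairs and the wild-type mice from a colony bred apart. They also name a pair of diets without the diet of each mouse. Genotype, breeding line and diet therefore cannot be told apart.

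Annexins are cytosolic proteins that bind acidic phospholipids, phosphatidylserine among them, when calcium rises. They share a core of annexin repeats, while their amino-terminal tails differ and carry the binding sites for S100 proteins and other partners. They are known for roles in membrane repair, vesicle traffic and the inner face of the plasma membrane, and several of them are found on milk fat globules. Btn1a1, butyrophilin, sits in the apical membrane of secretory epithelial cells and in the membrane around the fat droplets they release.

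Btn1a1 averaged 5.63 ± 0.30 log2 CPM in KO libraries (SD, n = 7) and 11.07 ± 0.09 in WT libraries (SD, n = 5), with no overlap of the groups. Csn2 and Wap, milk protein genes that mark the secretory gland, stood at 17.27 and 16.54 log2 CPM in both groups. The SD was 0 for both genes in each group. CPM is the count of a gene scaled to a common library total. The authors' values were quantile-normalized, so each value reflects a gene's rank in its library. The equal values of Csn2 and Wap therefore show an equal rank in every library and not an unchanged level. Total counts per library were not analysed here, the depth is therefore unknown, and no counting interval is given.

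Of the 9 annexin genes, 3 were higher in KO glands past an adjusted p of 0.05, 0 were lower and 6 did not pass. The 3 were Anxa1, a glucocorticoid-induced protein known for limiting inflammation, Anxa2, a partner of S100a10 at the plasma membrane, and Anxa3, a calcium-dependent membrane binder. Anxa1 rose 2.04-fold, Anxa3 1.61-fold and Anxa2 1.56-fold. Calls covered 9.36% of all 11834 genes, with 4.84% higher in KO and 4.52% lower. At an unadjusted p under 0.05 limma gave 4 annexins higher and 0 lower, where over all 11834 genes it gave 1443 higher and 1702 lower. Counts at that unadjusted threshold in later lists stand beside these 3145 genes. The authors' deposited table has 3 annexins higher and 0 lower at the adjusted threshold. The median log2 change was 0.25 over the 9 annexins and -0.03 over all 11834 genes.

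The promoters of Anxa1 and Anxa2, which rose, and of Anxa5, which had a log2 change below 0, are shown to set the start regions of members with unlike changes side by side. Each window runs 5′ to 3′ on the gene's strand from 250 bases before the RefSeq start to 50 bases after it (RefSeq, GRCm38.p6). Capitals mark matches, on either strand, to the 6 motifs searched, the TATA box core (TATAAA), the CAAT box (CCAAT), the GC box (GGGCGG), the AP-1 site (TGANTCA), the Stat site (TTCNNNGAA) and the E box (CACGTG). The Anxa1 window is chr19:20390622-20390921 on the minus strand, that of Anxa2 is chr9:69453433-69453732 on the plus strand, and that of Anxa5 is chr3:36475838-36476137 on the minus strand.
Anxa1: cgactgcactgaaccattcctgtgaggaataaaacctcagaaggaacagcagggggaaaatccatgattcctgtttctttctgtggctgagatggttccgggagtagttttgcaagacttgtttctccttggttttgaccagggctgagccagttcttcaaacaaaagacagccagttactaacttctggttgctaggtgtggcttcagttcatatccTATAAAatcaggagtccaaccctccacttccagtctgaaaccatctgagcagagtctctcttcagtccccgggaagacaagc
Anxa2: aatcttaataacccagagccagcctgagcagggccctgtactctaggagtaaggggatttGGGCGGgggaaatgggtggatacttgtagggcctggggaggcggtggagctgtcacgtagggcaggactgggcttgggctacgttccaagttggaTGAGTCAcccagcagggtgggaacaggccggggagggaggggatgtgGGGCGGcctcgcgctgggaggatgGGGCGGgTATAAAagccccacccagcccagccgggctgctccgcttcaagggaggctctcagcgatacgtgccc
Anxa5: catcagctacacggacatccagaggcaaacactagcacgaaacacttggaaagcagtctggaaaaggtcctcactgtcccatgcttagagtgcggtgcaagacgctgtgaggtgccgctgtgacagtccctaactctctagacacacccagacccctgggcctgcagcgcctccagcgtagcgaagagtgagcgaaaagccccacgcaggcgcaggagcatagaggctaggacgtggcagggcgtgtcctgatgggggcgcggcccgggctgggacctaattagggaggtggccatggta

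The Anxa1 window held 1 match, a TATA box core whose first base lay at -32 from the start. The Anxa2 window held a TATA box core at -17, GC boxes at -190, -48 and -24, and an AP-1 site, TGAGTCA, at -95. No match was found in the Anxa5 window. Of 32851 promoter windows of the same length, 13.6% held the TATA box core, 37.4% the CAAT box, 35.7% the GC box, 7.81% the AP-1 site, 8.3% the Stat site and 7.15% the E box. The windows also differed in base composition, with 47.3% G and C and 3 CpG in Anxa1, 63.7% and 13 CpG in Anxa2, and 60.3% and 16 CpG in Anxa5, where the medians over all windows were 52.7% and 7 CpG. The promoter table matched 7 of the 9 members, all except Anxa3 and Anxa6. A match is a string of letters, not a site shown to be used.

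Anxa1 lies on chromosome 19 from 20373428 to 20390944 (mm10, minus strand), with 13 exons in its longest coding transcript. It held 3.95, 3.81, 3.25, 4.36, 3.30, 3.50 and 3.28 log2 CPM in KO replicates 1 to 7, against 2.52, 2.40, 2.72, 2.86 and 2.54 in WT replicates 1 to 5. The groups did not overlap, and the lowest KO library, replicate 3, still lay above the highest WT library, replicate 4. Groups without overlap were found for 5.43% of all genes, with KO above WT for 2.69%. Anxa1 was the 1 annexin of 9 without overlap. KO libraries averaged 3.64 ± 0.42 log2 CPM (SD, n = 7) and WT libraries 2.61 ± 0.18 (SD, n = 5), a log2 change of 1.03 (SE 0.18, 95% interval 0.65 to 1.41, adjusted p = 0.00467 by limma). By p-value Anxa1 stood at place 117 of the 11834 genes. KO replicates 4, 1 and 2 were the highest, and the other 4 KO libraries lay between 3.25 and 3.50. The formyl peptide receptors through which Anxa1 protein is known to act on leukocytes, 5 genes sought, were not analysed here.

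Anxa3 lies on chromosome 5 from 96793339 to 96845966 (mm10, plus strand). It held 2.67, 2.12, 2.29, 2.49, 1.74, 1.91 and 2.44 log2 CPM in KO replicates 1 to 7, against 1.35, 1.35, 1.50, 1.74 and 1.79 in WT replicates 1 to 5. Of the KO libraries 6 lay above all WT libraries, and KO replicate 5 fell among the WT values. The means were 2.24 ± 0.33 log2 CPM in KO (SD, n = 7) and 1.55 ± 0.21 in WT (SD, n = 5). The log2 change was 0.69 (SE 0.16, 95% interval 0.35 to 1.03, adjusted p = 0.0173 by limma). That call ended without WT replicate 1 (adjusted p = 0.0509) and with day 10 libraries alone, where the log2 change was 0.55 (adjusted p = 0.169).

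Anxa2 lies on chromosome 9 from 69453620 to 69491795 (mm10, plus strand). It held 4.56, 4.33, 3.68, 4.58, 3.64, 3.98 and 4.32 log2 CPM in KO replicates 1 to 7, against 3.38, 3.67, 3.56, 3.72 and 3.26 in WT replicates 1 to 5. Of the KO libraries 5 lay above all WT libraries, while KO replicates 3 and 5 overlapped with them. The means were 4.15 ± 0.39 log2 CPM in KO (SD, n = 7) and 3.51 ± 0.19 in WT (SD, n = 5). The log2 change was 0.64 (SE 0.17, 95% interval 0.28 to 1.00, adjusted p = 0.0318 by limma). This call lies near the threshold and ended when any 1 of 8 libraries was left out, KO replicates 1, 2, 4 or 7 or WT replicates 1, 2, 3 or 5, with an adjusted p of up to 0.0815. With day 10 libraries alone the log2 change of Anxa2 was 0.71 (adjusted p = 0.0854).

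**Figure D1:**
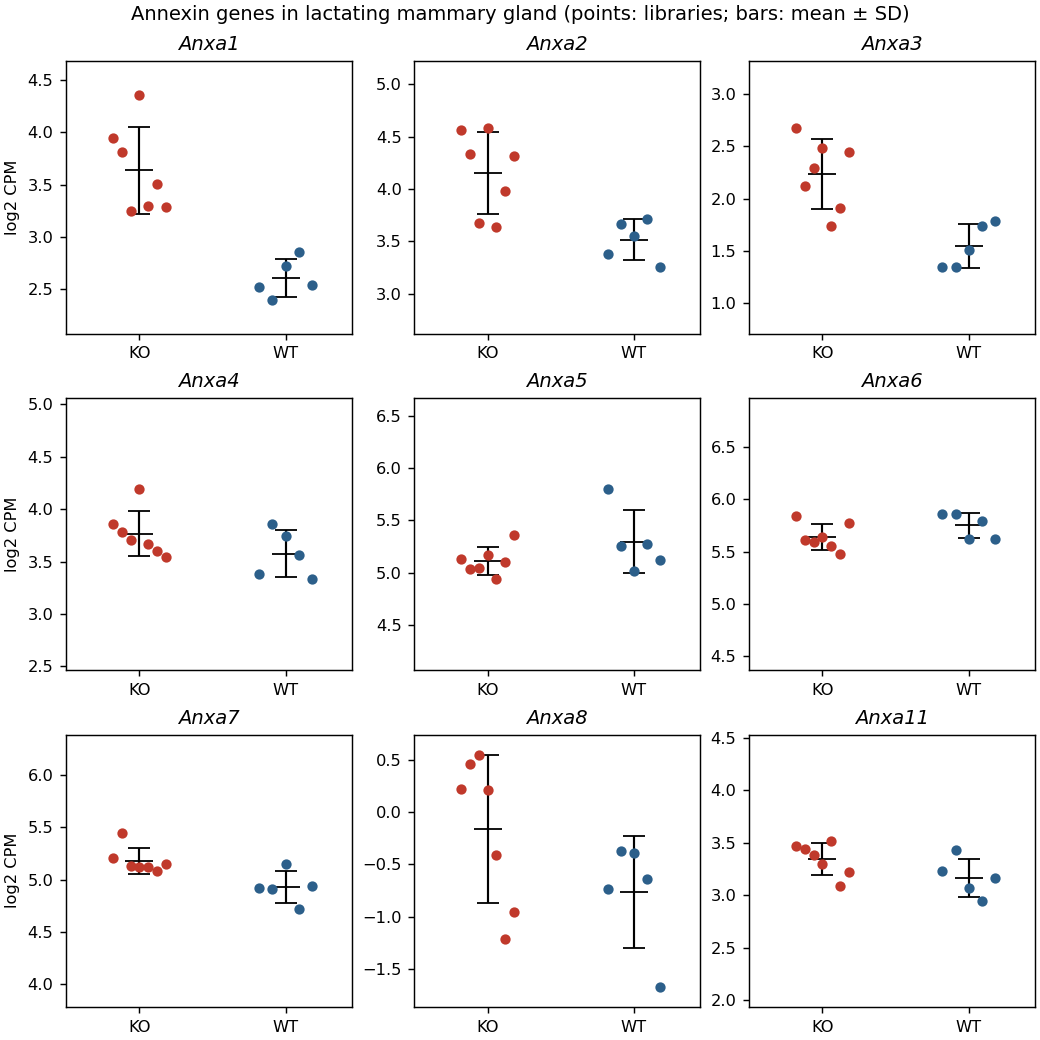
Log2 CPM of the 9 annexin genes, 1 panel per gene, with 7 KO libraries on the left and 5 WT libraries on the right of each panel; points are libraries in replicate order and bars are mean ± SD. Every panel spans the same number of log2 units, and the groups are apart in the Anxa1 panel, where KO libraries sit between 3.25 and 4.36 and WT libraries between 2.40 and 2.86.

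Anxa7, known as synexin and for membrane fusion in secretion, had the smallest unadjusted p among the 6 members that did not pass. It held 5.20, 5.45, 5.13, 5.12, 5.12, 5.08 and 5.15 log2 CPM in KO replicates 1 to 7, against 4.92, 4.91, 5.15, 4.72 and 4.94 in WT replicates 1 to 5. WT replicate 3 lay among the KO values, and the other WT libraries lay below all KO libraries. The log2 change was 0.25 (SE 0.08, 95% interval 0.08 to 0.42, adjusted p = 0.0644 by limma). It passed without WT replicate 3 (adjusted p = 0.0388).

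Anxa11 and Anxa7 are the annexins with long amino-terminal tails, and Anxa11 is known to tether RNA granules to lysosomes. Anxa11 ranged from 3.09 to 3.52 log2 CPM in KO libraries (median 3.38) and from 2.95 to 3.43 in WT libraries (median 3.16). Its log2 change was 0.18 (SE 0.10, 95% interval -0.03 to 0.39, adjusted p = 0.264 by limma). Anxa4, an annexin of epithelial membranes, ranged from 3.55 to 4.19 log2 CPM in KO libraries and from 3.33 to 3.86 in WT libraries. Its log2 change was 0.19 (SE 0.12, 95% interval -0.06 to 0.44, adjusted p = 0.323), and KO replicate 4 was the highest of the 12 libraries. Both genes overlapped widely between the groups.

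Anxa5 and Anxa6 were the members with a log2 change below 0. Anxa5 binds exposed phosphatidylserine and is the usual stain for dying cells. It held 5.13, 5.04, 5.05, 5.17, 4.94, 5.10 and 5.37 log2 CPM in KO replicates 1 to 7, against 5.80, 5.26, 5.02, 5.27 and 5.13 in WT replicates 1 to 5. The groups overlapped, with WT replicate 1 above every other library. The log2 change of Anxa5 was -0.18 (SE 0.11, 95% interval -0.43 to 0.06, adjusted p = 0.327 by limma). Without WT replicate 1 its log2 change was -0.06 (adjusted p = 0.732). Anxa6, whose core arose by duplication of the annexin repeats, ranged from 5.48 to 5.84 log2 CPM in KO libraries (median 5.61) and from 5.62 to 5.86 in WT libraries (median 5.79). Its log2 change was -0.11 (SE 0.08, 95% interval -0.27 to 0.05, adjusted p = 0.390), and 4 of the 7 KO libraries lay below all WT libraries. The 95% interval of Anxa1 lay wholly above those of Anxa4, Anxa5, Anxa6, Anxa7 and Anxa11.

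Anxa8, known in the mouse gland as a gene of ductal cells and of involution, was the member of lowest level. It held 0.22, 0.46, 0.55, 0.21, -0.41, -1.22 and -0.95 log2 CPM in KO replicates 1 to 7, against -0.74, -0.37, -0.39, -0.64 and -1.67 in WT replicates 1 to 5. KO replicates 1 to 4 lay above all WT libraries, whereas KO replicates 5, 6 and 7 lay among the WT values. The log2 change was 0.60 (SE 0.36, 95% interval -0.16 to 1.36, adjusted p = 0.303 by limma), so a change as large as that of Anxa1 lies within the interval. By mean level, 4.50% of genes stood below it in KO and 1.25% in WT. The Anxa8 locus lies wholly within A630023A22Rik on the other strand, with which it shares 0 exon bases in the annotation used. Anxa2, Anxa4 and Anxa11 share 98, 75 and 113 exon bases with genes of the other strand, under 3% of their exon bases in each case, and the sources do not say whether counting used strand. Anxa3 shares 112 exon bases, 3.07% of its own, with Gm42603 on the same strand, where strand would not tell the reads apart.

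**Figure D2:**
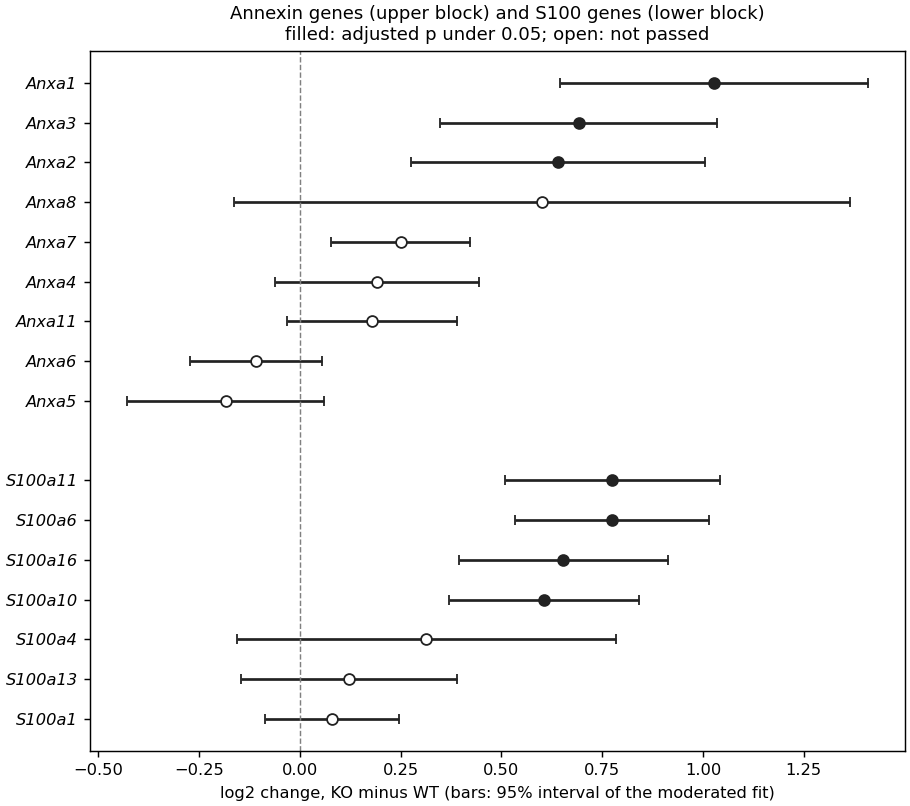
Log2 change of KO minus WT for the 9 annexin genes (upper block) and 7 S100 genes (lower block), with 95% intervals of the moderated fit; filled points passed an adjusted p of 0.05. Anxa1 stands at 1.03, Anxa5 at -0.18, and S100a6 and S100a11 at 0.77 each; S100a14 is left out of the plot because its log2 change of 3.31 lies beyond the axis.

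Levels of different annexins were set side by side per kb of exon, using the union of annotated exons. In KO glands the order was Anxa5, Anxa6, Anxa7, Anxa2, Anxa1, Anxa4, Anxa11, Anxa3 and Anxa8. In WT glands it was Anxa5, Anxa6, Anxa7, Anxa2, Anxa4, Anxa11, Anxa1, Anxa3 and Anxa8. Anxa1 thus stood 5th in KO, at 4.43 ± 1.39 CPM per kb (SD, n = 7), and 7th in WT, at 2.11 ± 0.27 CPM per kb (SD, n = 5). Anxa5 had 19.5 ± 1.88 CPM per kb in KO and 22.5 ± 5.18 in WT, and Anxa6 had 17.1 ± 1.52 in KO and 18.4 ± 1.52 in WT. Anxa5 and Anxa6 made up 33.0% and 28.8% of the family's summed CPM per kb in KO libraries and 39.1% and 32.3% in WT libraries. By the longest coding transcript each made up 23.0% in KO libraries, and in WT libraries Anxa5 made up 29.1% and Anxa6 27.5%.

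Several neighbours in that order were not apart. The ranges of Anxa5 and Anxa6 overlapped in both groups, although Anxa5 was above Anxa6 in all 7 KO and all 5 WT libraries, and so did those of Anxa4 and Anxa11. In KO the ranges also overlapped between Anxa7 and Anxa2, Anxa2 and Anxa1, and Anxa1 and Anxa4. In WT they also overlapped between Anxa2 and Anxa4 and between Anxa11 and Anxa1. By the longest coding transcript in place of the exon union, Anxa6 (20.1 CPM per kb) stood just before Anxa5 (20.06) in KO, and Anxa2 (12.7) before Anxa7 (12.5). The places of Anxa1, 5th in KO and 7th in WT, held under both lengths. The summed level of the 9 genes was 59.3 ± 5.32 CPM per kb in KO (SD, n = 7) and 57.2 ± 5.99 in WT (SD, n = 5), and the groups overlapped.

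**Figure D3:**
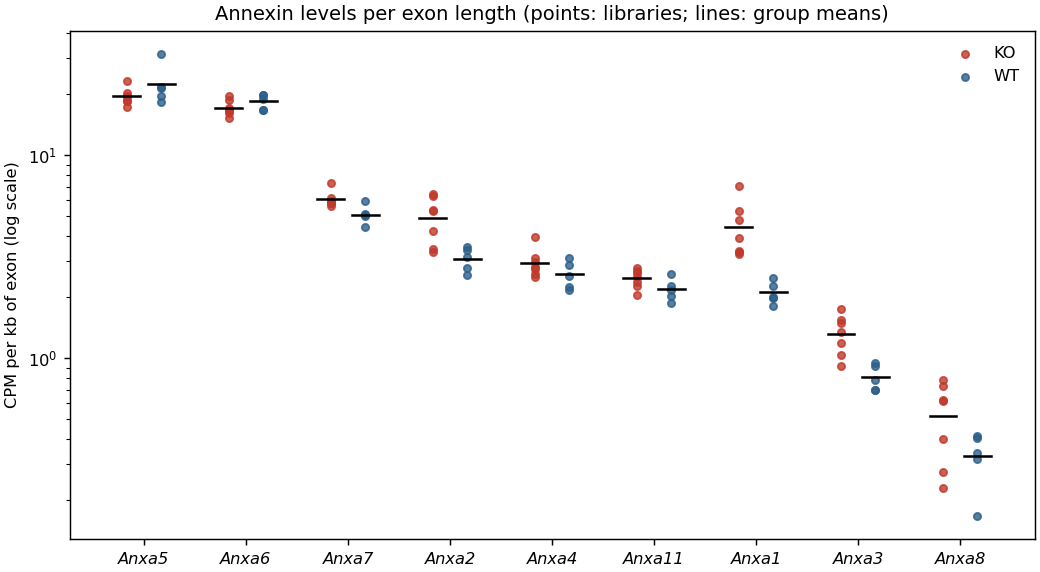
CPM per kb of exon on a log axis for the 9 annexin genes, ordered by the WT mean, with KO libraries left of WT libraries for each gene; points are libraries and lines are group means. Anxa5 and Anxa6 lie highest, between 15.2 and 31.4 CPM per kb over both groups, and Anxa8 lowest.

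KO libraries did not move alike. KO replicate 1 lay above all WT libraries for 7 of the 9 annexins, KO replicate 2 for 6 and KO replicate 4 for 5. KO replicates 3, 6 and 7 did so for 3 annexins each and KO replicate 5 for 2. The share of all genes doing so in each library was not computed. On the first principal component, the axis of largest spread over all genes (37.2%), KO replicates 4, 2 and 1 also lay farthest from WT. They stood at -47.7, -36.3 and -28.5, the other KO libraries from -13.7 to 7.14 and WT libraries from 19.2 to 33.3. The order is therefore not particular to the annexins. KO replicate 4 was the highest library for Anxa1, Anxa2 and Anxa4, and KO replicate 5 was the lowest KO library for Anxa2, Anxa3 and Anxa5. The spread of Anxa1 was 0.42 log2 CPM in KO and 0.18 in WT (SD), and that of Anxa2 was 0.39 in KO and 0.19 in WT. Anxa5 had the other order, with an SD of 0.13 in KO and 0.30 in WT.

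**Figure D4:**
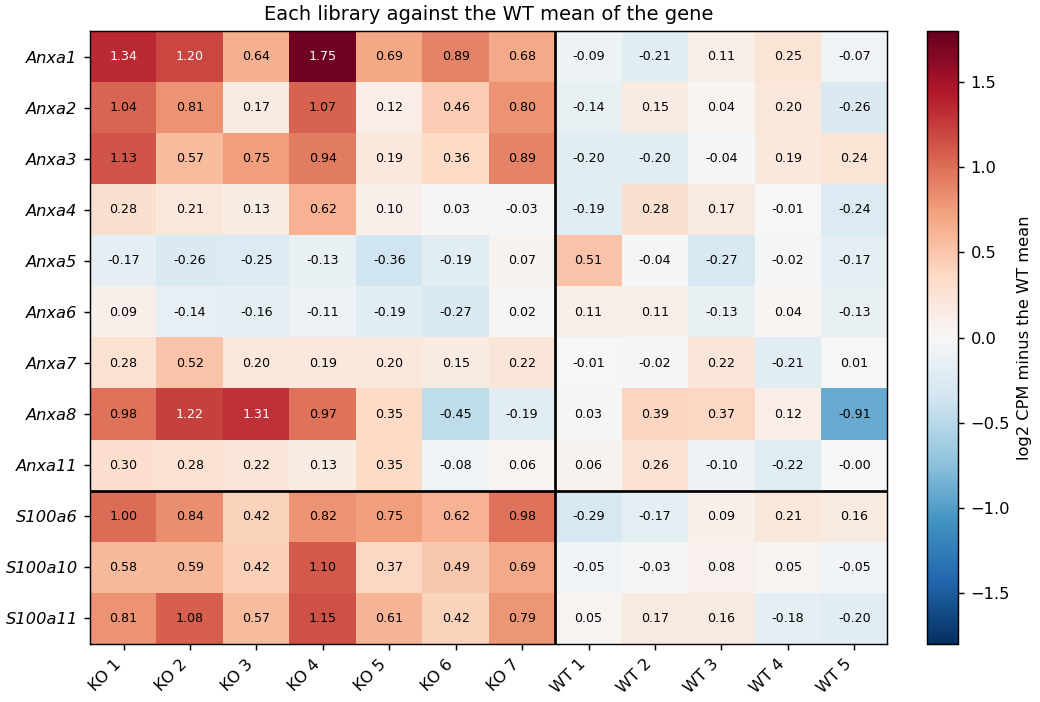
Log2 CPM of each library minus the WT mean of the gene, for 9 annexin genes and 3 S100 genes (rows) in 7 KO and 5 WT libraries (columns); red is above and blue below the WT mean. The Anxa1, Anxa2 and Anxa3 rows are above 0 in all KO libraries, from 0.12 for Anxa2 in KO replicate 5 to 1.75 for Anxa1 in KO replicate 4.

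S100 proteins are small calcium-binding dimers, several of which bind annexin tails. Of 12 S100 genes listed, 8 were measured, of which 5 were higher in KO past the adjusted threshold, 0 were lower and 3 did not pass (0 lower also at an unadjusted p under 0.05 in limma and in the authors' deposited table). Calls over all 11834 genes came to 9.36%, with 4.84% higher in KO. The median log2 change of the 8 S100 genes was 0.63, against -0.03 over all genes. S100a10, the subunit that joins Anxa2 in a tetramer, ranged from 3.13 to 3.86 log2 CPM in the 7 KO libraries and from 2.71 to 2.84 in the 5 WT libraries. The lowest KO library lay above the highest WT library, as it did for 2.69% of all genes. KO replicate 4 was the highest for both S100a10 and Anxa2, and KO replicate 5 was the lowest KO library for both. The log2 change of S100a10 was 0.61 (SE 0.11, adjusted p = 0.00522 by limma), next to 0.64 for Anxa2.

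S100a11, which binds the tail of Anxa1, ranged from 3.81 to 4.54 log2 CPM in KO libraries and from 3.19 to 3.56 in WT libraries. Its log2 CPM was 0.77 higher in KO (SE 0.12; limma, adjusted p = 0.00328). S100a6, a partner of Anxa11 and Anxa2, ranged from 3.91 to 4.49 log2 CPM in KO libraries and from 3.20 to 3.70 in WT libraries, and was 0.77 higher in KO (SE 0.11, adjusted p = 0.00221). The groups did not overlap for either gene, where 2.69% of all genes had KO above WT without overlap. The other S100 genes that passed were S100a16 (log2 change 0.65) and S100a14 (3.31), named after their values were seen. Their groups did not overlap either. S100a14 had a mean of -0.48 log2 CPM in KO and -3.79 in WT, so its change rests on a very low WT level.

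Pdcd6 and Sri, calcium-binding proteins of the penta-EF-hand family that bind the tails of Anxa7 or Anxa11, did not pass. Pdcd6 ranged from 4.01 to 4.76 log2 CPM in KO libraries and from 4.15 to 4.36 in WT libraries (log2 change 0.15, adjusted p = 0.410 by limma). Sri ranged from 2.85 to 3.52 in KO libraries and from 2.66 to 3.07 in WT libraries (log2 change 0.23, adjusted p = 0.219). Of the 7 measured penta-EF-hand and calpain genes 1 was higher, Capn2, a catalytic calpain subunit, with a log2 change of 0.43 (SE 0.09, adjusted p = 0.0125). That call ended with day 10 libraries alone, where the log2 change was 0.44 (SE 0.13, adjusted p = 0.0837). At an unadjusted p under 0.05 limma gave 2 of these 7 genes higher and 0 lower, and the authors' deposited table has 1 and 0. Calls over the whole table came to 9.36%, so 1 of 7 is near the background.

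Of 18 measured genes of plasma membrane repair 2 were higher in KO, 0 were lower and 16 did not pass (5 higher and 1 lower at an unadjusted p under 0.05 in limma, 2 and 0 in the authors' deposited table). Both that passed encode subunits of ESCRT-III, which pinches off membrane: the log2 change was 0.57 for Chmp2b (SE 0.08; limma, adjusted p = 0.00217) and 0.56 for Chmp4c (SE 0.14, adjusted p = 0.0250). The call of Chmp4c ended without WT replicates 1, 2 or 5, where its log2 change was 0.57, 0.47 and 0.53 (adjusted p of up to 0.0674), and with day 10 libraries alone, where it was 0.61 (adjusted p = 0.0573). The list median was 0.08, and 2 of 18 is near the 9.36% called over all genes.

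Of 19 measured genes that move, make or bind phosphatidylserine, the main lipid that annexins recognise, 3 were higher in KO, 0 were lower and 16 did not pass (7 higher and 4 lower at an unadjusted p under 0.05 in limma, 3 and 0 in the authors' deposited table). Plscr1, a phospholipid scramblase family member, rose by 0.99 on the log2 scale (SE 0.18; limma, adjusted p = 0.00685). Tyro3, a receptor tyrosine kinase for bridging proteins on phosphatidylserine, rose by 1.55 (adjusted p = 0.0120), and Atp11a, a flippase, by 0.76 (adjusted p = 0.0445). Over all genes 9.36% were called, 5.43% showed no overlap between the groups and 2.69% had KO above WT without overlap. These 3 genes, named because they passed on the same values, had KO above WT without overlap, each by a narrow gap. The other measured genes of the list overlapped. The lowest KO and highest WT values were 3.53 and 3.52 log2 CPM for Atp11a. They were 3.62 and 3.59 for Tyro3 and 4.59 and 4.55 for Plscr1. The call of Atp11a ended without KO replicates 1, 2, 3 or 4 or without any 1 WT library, with log2 changes of 0.66 to 0.81 (adjusted p of up to 0.105), and with day 10 libraries alone, with a log2 change of 0.69 (adjusted p = 0.209). That of Tyro3 ended with day 10 libraries alone, where its log2 change was 1.75 (SE 0.36, adjusted p = 0.0510).

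Among 12 measured genes of the C2 domain, the other large family of calcium-dependent lipid binders, 1 was higher in KO, 0 were lower and 11 did not pass (2 higher and 2 lower at an unadjusted p under 0.05 in limma, 1 and 0 in the authors' deposited table). This was Cpne8, a copine, with a log2 change of 1.10 (SE 0.20, adjusted p = 0.00592 by limma). It passed in all leave-one-out fits and not with day 10 libraries alone, where its log2 change was 0.99 (SE 0.24, adjusted p = 0.0612). Calls over all genes came to 9.36%, so 1 of 12 is near the background. The list median was -0.01.

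The genes whose profile over the 12 libraries lay nearest to each of the 3 called annexins were found by the root mean square difference of log2 CPM, each gene taken minus its WT mean, among 9311 other genes. Among the nearest to Anxa1 were Cadm1, a cell adhesion molecule (0.22), and Tpm4, a tropomyosin (0.24), where the median gene differed by 0.89. Nearest to Anxa3 were Tsc22d1, a transcriptional regulator (0.21), Ifngr2, a chain of the interferon gamma receptor (0.22), and Plp2, a small membrane protein (0.22). Nearest to Anxa2 were Tuba1b, an alpha tubulin (0.13), Cav1, the coat protein of caveolae (0.17), and Sepn1, a selenoprotein of the endoplasmic reticulum (0.18). The median gene differed by 0.64 from Anxa3 and by 0.63 from Anxa2. Among the 3 called annexins the closest profiles were those of Anxa2 and Anxa3, which differed by 0.26. Pairs of the members that did not pass were not compared. All these profiles share the same 12 libraries and their normalization. Taking each gene minus its WT mean keeps the KO shift, so genes with a like log2 change lie near each other by construction.

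Marker lists of several cell types, luminal and ductal epithelium included, were set beside the annexins, and some held calls while the muscle list held none. In whole-gland RNA, a change in the number of cells of a type and a change in RNA per cell cannot be told apart. The share called over all genes was 9.36%, with 4.84% higher in KO and 4.52% lower. Of 13 macrophage markers 4 were higher in KO and 0 lower. The summed level of the list ran from 91.7 to 183.3 CPM in KO libraries and from 86.3 to 105.1 CPM in WT libraries. Cd14, the marker of highest mean level, was not called (adjusted p = 0.185 by limma) and had an SD of 0.75 log2 CPM in KO. Of 11 basal and myoepithelial markers 6 were higher and 0 lower, with sums of 588 to 901 CPM in KO and 521 to 699 CPM in WT. Of 10 luminal and ductal markers 4 were higher and 1 lower, with sums of 289 to 407 CPM in KO and 232 to 282 CPM in WT. Fibroblast markers gave 2 of 9 higher and 0 lower (1 higher in the authors' deposited table), with sums of 224 to 539 CPM in KO and 188 to 281 CPM in WT. None of the 19 muscle markers was called (2 higher at an unadjusted p under 0.05 in limma, 0 called in the authors' deposited table), with sums of 130 to 2113 CPM in KO and 90.7 to 599.5 CPM in WT.

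Endothelial markers gave 0 of 9 higher and 1 lower, with sums of 44.4 to 81.1 CPM in KO and 55.0 to 89.3 CPM in WT. Adipocyte markers gave 1 of 9 higher and 0 lower, with sums of 359 to 644 CPM in KO and 365 to 589 CPM in WT. For both lists 1 of 9 is near the 9.36% called over all genes. Of the neutrophil list only Ltf, which the secretory epithelium also makes, was measured, and of the lymphocyte list only 1 gene of 9. At an unadjusted p under 0.05 limma gave 1 macrophage marker lower, and 0 basal, fibroblast and adipocyte markers lower and 0 endothelial markers higher, and the authors' deposited table called 0 in those directions. Whether a measured marker of these lists had a count of 0 in any library is not known, since no read counts were used.

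The calls of the 3 annexins changed when a marker score entered the fit beside genotype, alternatives that except for muscle were chosen after seeing the data. With the macrophage score the log2 change was 0.75 for Anxa1 (SE 0.24, adjusted p = 0.307), 0.53 for Anxa2 (adjusted p = 0.503) and 0.39 for Anxa3 (adjusted p = 0.543). With the basal and myoepithelial score it was 0.80 for Anxa1 (adjusted p = 0.207), 0.24 for Anxa2 (adjusted p = 0.624) and 0.52 for Anxa3 (adjusted p = 0.344). With the luminal and ductal score it was 0.41 for Anxa1 (adjusted p = 0.554), 0.14 for Anxa2 (adjusted p = 0.890) and 0.45 for Anxa3 (adjusted p = 0.630). These limma fits called 6, 7 and 3 genes in the whole table. The calls of S100a6, S100a10, S100a11, Capn2, Chmp2b, Chmp4c, Plscr1, Tyro3, Atp11a and Cpne8 also ended with each of these 3 scores, and those of Capn2, Chmp4c, Tyro3 and Atp11a with the muscle score. Some of these changes stayed as large with the macrophage or the basal score while their SE grew, and were smaller with the other scores. The log2 change of Plscr1 was 1.00 with the macrophage score (SE 0.27), 0.546 with the basal and 0.808 with the luminal score. That of Cpne8 was 1.13 with the basal score (SE 0.30), 0.697 with the macrophage and 0.874 with the luminal score. That of Chmp2b was 0.59 with the basal score (SE 0.12), 0.434 with the macrophage and 0.472 with the luminal score. Others were smaller with each score. Over the 3 scores the log2 change was 0.11 to 0.47 for Atp11a, 0.17 to 0.40 for Chmp4c and 0.27 to 0.37 for Capn2. For Tyro3 it was 1.05 with the basal and 1.06 with the luminal score. It was 0.48 to 0.69 for S100a6, 0.29 to 0.55 for S100a10 and 0.33 to 0.67 for S100a11. With the muscle score Anxa1 kept its call, at 0.88 (SE 0.18, adjusted p = 0.0239), while Anxa2 stood at 0.56 (adjusted p = 0.137) and Anxa3 at 0.56 (adjusted p = 0.0909).

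**Figure D5:**
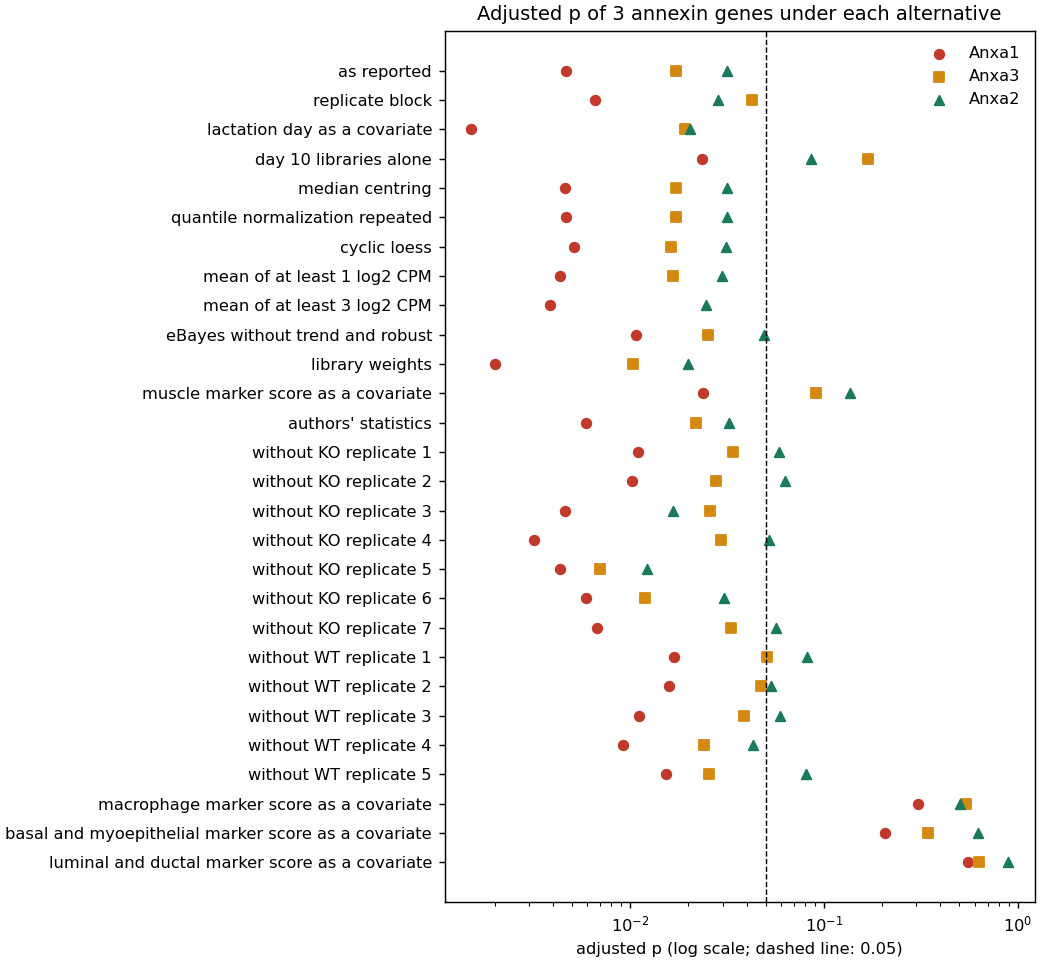
Adjusted p of Anxa1, Anxa3 and Anxa2 (log axis) for the values as reported and for each alternative fit, with a dashed line at 0.05. Anxa1 lies left of the line in all fits except those with the macrophage, basal and luminal marker scores, whereas Anxa2 crosses it in 8 of the 12 leave-one-out fits.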

How the data were processed

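Per the submitters' processing notes, reads passed through bcl2fastq 2.17 and Trimmomatic 0.33, and STAR 2.5.2b, RSEM 1.3.0 and limma 3.34.5 are named after them, with the builds mm10 and hg19. The authors deposited 1 table of 11834 genes whose library columns hold log2 CPM, per the file headers from limma voom. The same sorted values recur across libraries (67.1% of ranks within 0.01 log2), so the authors had quantile-normalized them. Beside them the authors' own log2 fold change, a score (moderated t statistic), group means and SD, and deposited p-values, raw and adjusted, were used as listed. Neither the annotation nor the filter on low genes is given in the sources used here.

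The deposited log2 values were fitted by genotype with limma 3.58.1 in R 4.3.3 (eBayes with trend and robust), all 12 libraries, two-sided, Benjamini-Hochberg over 11834 genes, called at an adjusted p under 0.05. SE and intervals come from this fit, and SD is between libraries. No read counts were used. The fit was tested on simulated data. Gene positions and exon lengths come from GENCODE M21 (mm10), matched by symbol. Python 3.11.15 and matplotlib 3.10.9 made the descriptions and figures.

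The members and lists were chosen with earlier results of these data known. Named genes were Btn1a1, all annexins, up to 3 called genes per partner list, 5 direct partners (S100a10, S100a11, S100a6, Pdcd6, Sri) and the 3 nearest profiles (mean of at least 1 log2 CPM) per called annexin, of which 1 is not reported here. Lists were described by counts and medians, without a list test. Alternatives were the replicate block, lactation day, day 10 libraries, normalizations, filters, variance options, library weights, marker scores, a stricter threshold, the authors' statistics and leaving out each library.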

Additional observations from a re-analysis of the deposited data

Results flagged for a closer look

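Of 44 groups of values tested, the 7 KO or 5 WT libraries of 22 genes, 4 held a library far from the others by Dixon's ratio, and chance flags about 1 in 20 such groups. Anxa7 stood at 5.45 log2 CPM in KO replicate 2, where the next KO library had 5.20, and without that library its log2 change was 0.21 (adjusted p = 0.107 by limma). Anxa8 stood at -1.67 log2 CPM in WT replicate 5, where the next WT library had -0.74, and without it the log2 change was 0.37 (adjusted p = 0.562 by limma). Capn2 stood at 3.43 log2 CPM in WT replicate 5, where the next WT library had 3.79, and it kept its call without that library at a log2 change of 0.35 (adjusted p = 0.0283 by limma). Btn1a1 stood at 11.23 log2 CPM in WT replicate 3 and at 11.03 in the other WT libraries.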

How the results depend on the processing

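Of 28 alternatives, 21 gave 2 or 3 called annexins, beside 3 as reported. Anxa1, Anxa2 and Anxa3 were higher in KO in all 28 (27 for Anxa3, which a mean of at least 3 log2 CPM leaves out). The stricter threshold, the filters and eBayes without trend and robust do not alter the log2 change, so they could not turn a direction. There was 1 called annexin, Anxa1, with day 10 libraries alone, with the muscle score and at an adjusted p under 0.01. With the macrophage, basal and luminal scores limma called 0 annexins (1, 2 and 0 at an unadjusted p under 0.05). Leaving out 1 library gave 1 to 3 annexins, the 1 without WT replicate 1. Over all genes 1108 were called, 268 with day 10 libraries alone, 291 with the muscle score, 249 at an adjusted p under 0.01, and 6, 7 and 3 with the macrophage, basal and luminal scores. Leaving out 1 library gave 559 to 1327 genes, and moved the count by over 1.5 times for WT replicates 1 (559), 2 (644), 3 (725) and 5 (696) and KO replicate 1 (724). The direction turned for Anxa4 (-0.15), Anxa8 (-0.029) and Sri (-0.11) with the luminal score, for Anxa8 with the macrophage score (-0.13) and for Pdcd6 with the basal score (-0.0036), none of them called before or after. The cause of these changes was not tested.

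Equal replicate numbers in KO and WT mark no shared animal in the labels. Same-numbered libraries had correlations of their deviations between -0.17 and 0.21, and KO replicates 4 and 5 alone correlated best with their own number. The fit with the replicate block called 1083 genes, among them 3 annexins. A fit without any filter could not be had, since the table was filtered when deposited. Depth is unknown, so it is not known how far counting error limits Anxa8, the member of lowest level.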
